A study of Mus musculus with 12 samples.

Results

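The 9 genes described here encode the PGC-1 coactivators and the factors through which they act on mitochondria. Ppargc1a, Ppargc1b and Pprc1 are coactivators, and Nrf1, Gabpa and Esrra are DNA-binding partners. Tfam and Tfb2m are proteins of mitochondrial DNA transcription, and Tfb1m modifies mitochondrial ribosomal RNA. The 9 genes were chosen by name, as every probe set whose single symbol in the platform annotation is one of them. This gave 20 probe sets of the 45037 non-control probe sets on the array, and 9 of the 18193 genes named there. The arrays measured total RNA of 3T3-L1 adipocytes, a mouse fibroblast line turned into fat cells by a cocktail of IBMX, insulin and dexamethasone. Cells at day 8 to 10 of differentiation were first starved of serum for 12 h, with 0.2% albumin. They were then given DMSO, the solvent, or berberine, an alkaloid of plants, at 5 µM for 3, 6 or 12 h. Each of the 4 groups has 3 arrays. All groups share the cell line, the induction and the starvation step, and no genotype differs between them.

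PGC-1 proteins do not bind DNA themselves. They are recruited by transcription factors such as NRF1, GABP and the oestrogen-related receptors to nuclear genes of the respiratory chain, and to the genes of the proteins that copy and transcribe mitochondrial DNA. Ppargc1a is the family member known for its fast induction by cold, fasting and exercise in brown fat, liver and muscle, while white fat cells hold less of it.

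The labels do not say how long the DMSO cells were kept, so that a change with berberine and a change with time in culture cannot be told apart in any comparison with DMSO. Nor do they say that the arrays come from separate cultures, so the p-values measure only how far these samples spread, and that spread may be technical. Values are the deposited MAS5 signals on the log2 scale, and a level is compared only with other levels of the same probe set. A probe set was kept if at least 3 of the 12 arrays reached the median of all values, 5.77 on the log2 scale, and all 20 probe sets were. "Rose" and "fell" are used for an adjusted p under 0.05 in limma's test over all 25053 kept probe sets (Benjamini-Hochberg adjustment), and a value in parentheses after ± is an SE for a change and an SD for a mean. The number of arrays, not sequencing depth, limits the precision. No 2 arrays held identical values, and the correlation of arrays across probe sets was 0.91 to 0.924 within groups and 0.907 to 0.923 between groups.

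The defining adipocyte genes were present: all 9 adipocyte markers tested lay at or above 5.77 in the mean of the DMSO arrays, Adipoq with a mean of 15.2. Their summed linear signal was 129482 to 143071 at 12 h, against 128341 to 162385 with DMSO. At 12 h 5 of the 9 fell and none rose, among them Cidec by 1.44 and Lipe by 0.88 on the log2 scale. Of the preadipocyte and fibroblast markers 7 of 8 reached 5.77 in the group means and Cd34 on no array, with summed signals of 86066 to 92749 at 12 h, against 75234 to 87960 with DMSO. Of the 7 tested, Vim rose by 0.27 at 12 h, and Pdgfra and Col1a1 fell by 0.28 and 0.35 on the log2 scale. Of the macrophage markers 3 of 6 reached 5.77 in the group means, with summed signals of 942 to 1073 at 12 h, against 772 to 915 with DMSO, while Ptprc and Itgam stayed under it on all arrays and Adgre1 reached it on 2. Cd14 rose by 0.38 at 12 h (limma, adjusted p = 0.0104). None of the 4 endothelial markers reached it in a group mean. In bulk RNA, fewer cells of a type and less RNA per cell cannot be told apart, and the part that these markers have in the results below was not tested.

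Promoter windows of 4 of the 5 genes with a probe set that rose at 12 h are shown first, as the stretches in which the letters bound by the partners of this group were looked for. RefSeq's table (mouse build GRCm38.p6) held 8 of the 9 genes, with 250 bases before and 50 after the start. Windows for Ppargc1a (chr5:51567676-51567975, minus strand), Nrf1 (the upstream one of 2 listed starts, chr6:30047738-30048037, plus strand), Gabpa (chr16:84834874-84835173, plus strand) and Esrra (chr19:6921759-6922058, minus strand) are printed 5′ to 3′ along the gene, with every match to the searched letters in capitals.
Ppargc1a: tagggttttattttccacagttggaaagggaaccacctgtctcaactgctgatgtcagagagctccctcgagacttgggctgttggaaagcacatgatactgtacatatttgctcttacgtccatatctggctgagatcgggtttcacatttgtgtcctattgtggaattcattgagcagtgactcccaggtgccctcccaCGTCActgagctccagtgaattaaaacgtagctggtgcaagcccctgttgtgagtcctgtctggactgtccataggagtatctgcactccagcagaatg
Nrf1: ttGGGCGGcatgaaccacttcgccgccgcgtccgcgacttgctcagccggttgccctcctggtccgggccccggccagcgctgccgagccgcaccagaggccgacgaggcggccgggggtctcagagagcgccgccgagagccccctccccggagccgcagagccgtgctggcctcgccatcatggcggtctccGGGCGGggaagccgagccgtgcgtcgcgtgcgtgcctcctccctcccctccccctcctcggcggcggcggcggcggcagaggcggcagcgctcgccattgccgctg
Gabpa: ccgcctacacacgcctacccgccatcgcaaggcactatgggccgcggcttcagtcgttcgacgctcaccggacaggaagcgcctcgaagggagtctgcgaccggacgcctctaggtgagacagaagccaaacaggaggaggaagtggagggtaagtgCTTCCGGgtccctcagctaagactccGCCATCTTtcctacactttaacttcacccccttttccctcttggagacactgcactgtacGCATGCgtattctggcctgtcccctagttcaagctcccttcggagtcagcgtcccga
Esrra: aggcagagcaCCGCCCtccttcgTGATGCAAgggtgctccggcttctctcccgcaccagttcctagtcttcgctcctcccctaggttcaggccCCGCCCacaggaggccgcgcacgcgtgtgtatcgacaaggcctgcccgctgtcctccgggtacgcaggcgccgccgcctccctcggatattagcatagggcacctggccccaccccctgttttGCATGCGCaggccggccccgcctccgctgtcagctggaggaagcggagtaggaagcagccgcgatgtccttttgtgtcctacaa
Searches ran on both strands, and positions count from the start as 1, with bases before it negative. The letters searched were GCGCATGC and its inner part GCATGC (NRF1), CCGGAAG (GABP and other ETS factors), AAGGTCA (oestrogen-related receptors), TGACGTCA and its part TGACG (cAMP response element), TGATGNAA (ATF4 composite), CACGTG (E-box), AAGATGGC (YY1) and GGGCGG (SP1). GCATGC is its own reverse complement and lies within the longer NRF1 letters, and TGACG lies within TGACGTCA.

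The Ppargc1a window holds a single match, the cAMP response element part at -49 to -45, which occurs in 20.8% of the 32851 windows of this length in the table. The Tfb1m window holds the same part at -132 to -128 and at -87 to -83. Gabpa's window holds the ETS letters at -93 to -87, the YY1 letters at -67 to -60 and the shorter NRF1 letters at -7 to -2. These occur in 8.86%, 2.75% and 7.93% of all windows. Esrra's window holds the longer NRF1 letters at -34 to -27, found in 2.71% of all windows, and the ATF4 composite letters at -227 to -220, found in 3.97%. The longer NRF1 letters also stand in the Tfb2m window at 14 to 21, and the ETS letters in the Tfam window at -47 to -41. The upstream Nrf1 window holds only the SP1 letters, found in 35.7% of all windows, the other Nrf1 window holds no match, and Pprc1 (chr19:46056289-46056588, plus strand) holds none. No window of the 8 genes holds the receptor letters, TGACGTCA or the E-box, which occur in 4.72%, 1.79% and 7.15% of all windows. These are matches of letters, and no binding was measured.

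With berberine the coactivator Ppargc1a rose at every time, the coactivator Pprc1 and the factor Nrf1 rose at 6 and 12 h, and Esrra rose at 12 h, by the brightest kept probe set of each gene. Ppargc1a was 1.66-fold, 1.98-fold and 2.20-fold higher than with DMSO at 3, 6 and 12 h, and Nrf1 was 1.53-fold and 1.85-fold higher at 6 and 12 h. Tfam, Tfb1m, Tfb2m and Ppargc1b did not pass the test in any comparison with DMSO. Counted by the brightest probe set, 1 of the 9 genes rose at 3 h, 3 rose at 6 h and 4 rose at 12 h, and 0 fell at any time. Over all 12136 genes, 1.34% were called at 3 h, 12.4% at 6 h and 26.5% at 12 h, with 1551 rising and 1660 falling at 12 h. The median log2 change of the 9 genes was 0.05, 0.11 and 0.11 at 3, 6 and 12 h, and that of all genes 0.02, 0.01 and -0.01.

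Counted by probe set, 1 of the 20 rose at 3 h, 8 at 6 h and 9 at 12 h, and 0 fell. Probe sets of the same gene are counted separately here, and most of the 8 at 6 h belong to Ppargc1a. The shares called over all kept probe sets were 0.998%, 10.5% and 23.3% at these times. At 3 h the share of the 20 that was called rests on 1 probe set, and 6 passed an unadjusted p of 0.05. The share of all kept probe sets at that unadjusted cut was not counted, so the 6 cannot be set against the 0.998%. No overlap between the berberine and the DMSO arrays was seen for 6, 9 and 10 of the 20 probe sets at 3, 6 and 12 h, against 17.4%, 27.2% and 36.2% of all kept probe sets. These counts take both directions: Esrra 1442864_at at 3 h and Tfam 1456215_at at 6 h lay below DMSO, and the others above it. The 3 comparisons share the same 3 DMSO arrays, so they are not independent of each other. A moderated F test over the 3 times called Ppargc1a, Ppargc1b, Pprc1 and Nrf1 by their brightest probe sets. It called Gabpa only by its dimmer probe set, 1450665_at (F test, adjusted p = 0.0181). Of all kept probe sets 19.4% were called, and the share of genes was not counted for this test.

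**Figure D1:**
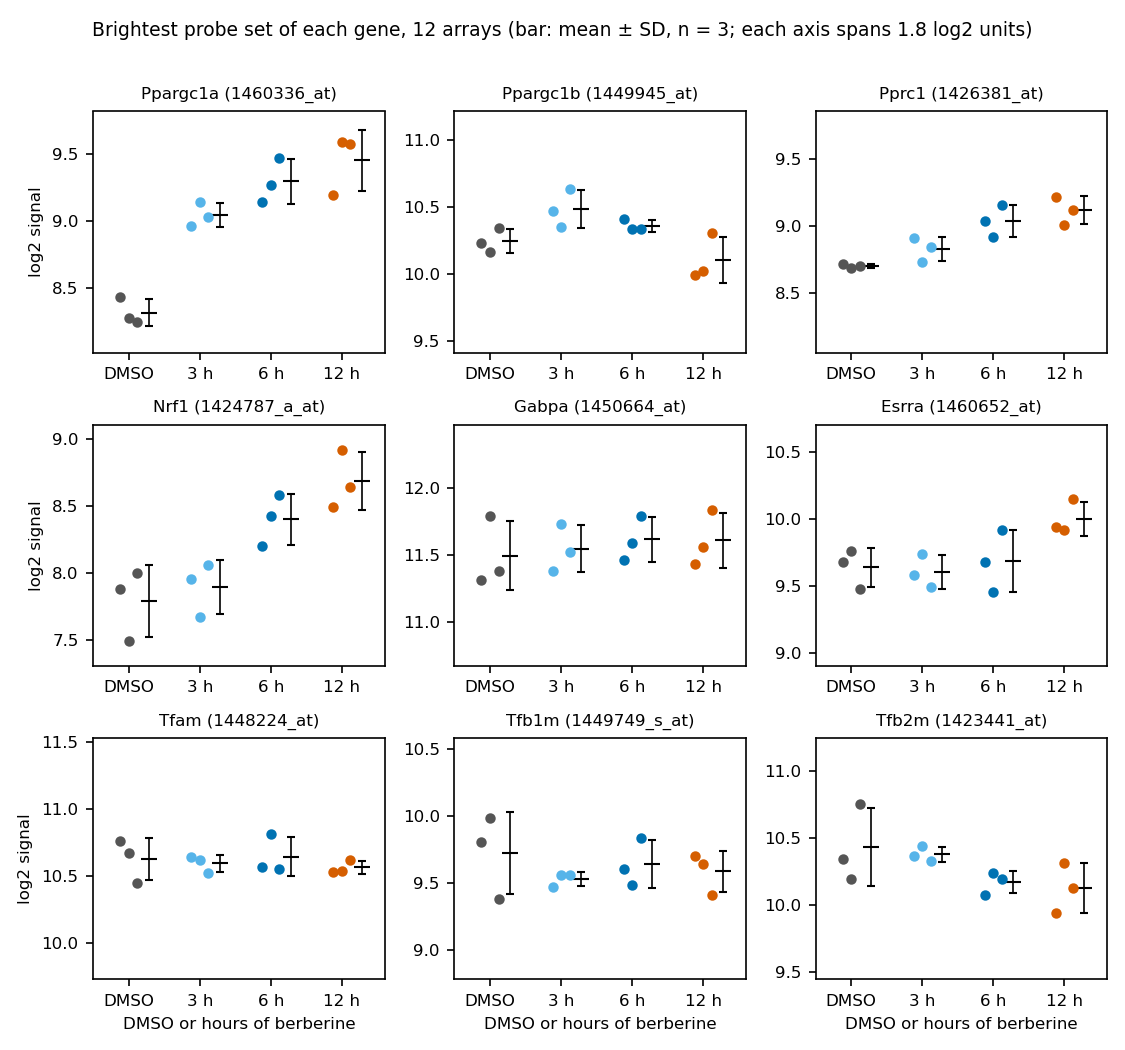
The log2 signal of the brightest probe set of each of the 9 genes is plotted for the 12 arrays, by DMSO or hours of berberine; points are arrays, and bars are the mean ± SD of 3. The 9 berberine arrays of Ppargc1a sit between 8.96 and 9.59, all above the DMSO arrays at 8.24 to 8.43, while the groups of Tfam overlap.

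Ppargc1a encodes PGC-1α, the coactivator for which the family is named. Its brightest probe set, 1460336_at, had log2 signals of 8.43, 8.27 and 8.24 with DMSO, 8.96, 9.14 and 9.03 at 3 h, 9.14, 9.27 and 9.47 at 6 h, and 9.19, 9.59 and 9.57 at 12 h. Every berberine array lay above every DMSO array, and the lowest 6 h value was equal to the highest 3 h value to 2 decimals. The group means were 8.31 ± 0.10 with DMSO, 9.04 ± 0.09 at 3 h, 9.29 ± 0.17 at 6 h and 9.45 ± 0.23 at 12 h (SD, n = 3 each). The log2 changes against DMSO were 0.73 ± 0.12 at 3 h, 0.98 ± 0.12 at 6 h and 1.14 ± 0.12 at 12 h (SE; limma, adjusted p = 0.00646, 9.38e-05 and 4.75e-06). The 3 h call ended when the variance was modelled without its trend on intensity (adjusted p = 0.0673).

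Ppargc1a has 4 further probe sets, 1434099_at and 1434100_x_at of which were built on the same sequence record and so are not independent. At 6 h all 5 probe sets rose, by 0.71 to 1.15 on the log2 scale. At 12 h 4 of 5 rose, by 0.65 to 1.27, and the fifth, 1434100_x_at, had a change of 0.58 (adjusted p = 0.0516, interval 0.15 to 1.02), which was called without replicate 2 of DMSO (0.016), replicate 1 of 12 h (0.038) or replicate 3 of 3 h (0.0476). At 3 h only 1460336_at rose, and the other 4 had changes of 0.37 to 0.61 with adjusted p of 0.192 to 0.425, so the 3 h call rests on 1 of the 5. Without replicate 3 of DMSO, 1456395_at was called at 3 h as well (adjusted p = 0.0405).
The largest change was that of 1456395_at, with signals of 7.08, 7.22 and 7.83 with DMSO, 7.59, 8.15 and 8.23 at 3 h, 8.68, 8.51 and 8.38 at 6 h, and 8.47, 8.81 and 8.66 at 12 h. All 6 arrays of the later times lay above the DMSO arrays, while the 3 h arrays overlapped with the third DMSO array. Its folds against DMSO were 2.22 at 6 h and 2.41 at 12 h (limma, adjusted p = 0.00154 and 0.00019).

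In the direct comparison of 12 h with 3 h, 1460336_at was higher by 0.41 ± 0.12 and 1456395_at by 0.66 on the log2 scale (limma, adjusted p = 0.0367 and 0.0372). The call of 1460336_at ended without replicate 2 or 3 of 12 h (adjusted p = 0.151 and 0.131) and without replicate 1, 2 or 3 of 3 h (0.126, 0.053 and 0.0904). That of 1456395_at ended without replicate 2 or 3 of 12 h (0.136 and 0.087) and without replicate 1 or 2 of 3 h (0.184 and 0.0514). Between 6 h and 3 h and between 12 h and 6 h, none of the 5 Ppargc1a probe sets was called. The change from 6 to 12 h was 0.16 for 1460336_at, with a 95% interval of -0.11 to 0.42.

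Ppargc1b encodes PGC-1β, a related coactivator that is also abundant in brown fat, heart and muscle. Its single probe set, 1449945_at, had signals of 10.23, 10.16 and 10.34 with DMSO, 10.47, 10.35 and 10.63 at 3 h, 10.41, 10.33 and 10.33 at 6 h, and 9.99, 10.02 and 10.30 at 12 h. The 3 h arrays lay just above the DMSO arrays, and the 12 h arrays lay below the 3 h arrays and overlapped with DMSO. Against DMSO the changes were 0.24 at 3 h (95% interval 0.04 to 0.44), 0.11 at 6 h (-0.09 to 0.32) and -0.14 at 12 h (-0.34 to 0.06), and none was called (limma, adjusted p = 0.314, 0.535 and 0.341). At 12 h Ppargc1b was 1.30-fold lower than at 3 h, a log2 change of -0.38 ± 0.10 (limma, adjusted p = 0.0131). It was the only one of the 20 probe sets that fell in this comparison. The call ended without replicate 1 or 2 of 12 h (adjusted p = 0.0644 and 0.0622) and without replicate 3 of 3 h (0.0731).

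Pprc1 encodes PRC, the third coactivator of the family, known for its early response to serum in growing cells. Its probe set 1426381_at had signals of 8.72, 8.69 and 8.70 with DMSO, 8.91, 8.73 and 8.84 at 3 h, 9.04, 8.92 and 9.16 at 6 h, and 9.22, 9.01 and 9.12 at 12 h. The DMSO arrays were within 0.03 of each other, and every berberine array was higher. The log2 change was 0.12 at 3 h (95% interval -0.10 to 0.34, not called), 0.33 ± 0.10 at 6 h and 0.41 ± 0.10 at 12 h, folds of 1.26 and 1.33 (limma, adjusted p = 0.047 at 6 h and 0.00753 at 12 h). The 6 h call ended in 16 of the alternative analyses, with adjusted p of 0.0504 to 0.168, among them the omission of any 1 of the 12 arrays.

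**Figure D2:**
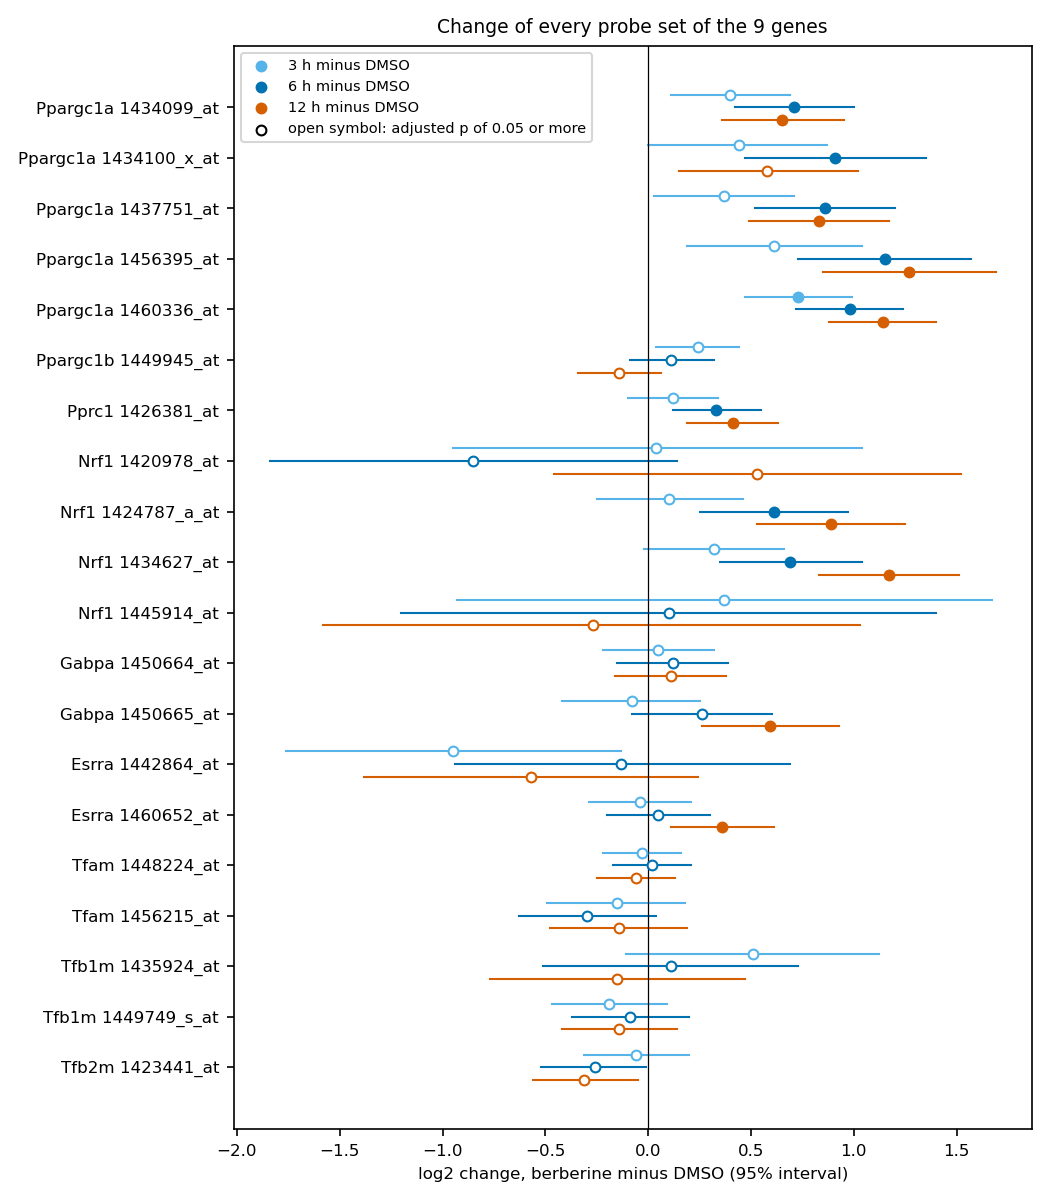
The log2 change against DMSO of each of the 20 probe sets is plotted with its 95% interval, 1 colour for each time; filled symbols have an adjusted p under 0.05. The called changes belong to Ppargc1a, Pprc1, Nrf1, Gabpa and Esrra and all lie to the right of 0, and the intervals of Tfam and Tfb1m include 0 at each time.

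Nrf1 encodes nuclear respiratory factor 1, which binds the promoters of many respiratory chain genes and of Tfam. Its brightest probe set, 1424787_a_at, had signals of 7.88, 7.49 and 8.00 with DMSO, 7.95, 7.67 and 8.06 at 3 h, 8.20, 8.42 and 8.58 at 6 h, and 8.49, 8.92 and 8.64 at 12 h. At 3 h the arrays overlapped with DMSO, and at 6 and 12 h all lay above it. The log2 changes were 0.10 at 3 h (95% interval -0.25 to 0.46), 0.61 ± 0.17 at 6 h and 0.89 ± 0.17 at 12 h (limma, adjusted p = 0.876, 0.0283 and 0.000962).
A further probe set, 1434627_at, had signals of 7.43, 7.16 and 7.17 with DMSO, 7.65, 7.35 and 7.73 at 3 h, 7.80, 7.92 and 8.13 at 6 h, and 8.58, 8.30 and 8.38 at 12 h. It rose 1.62-fold at 6 h and 2.25-fold at 12 h (limma, adjusted p = 0.0109 and 5.57e-05). Both probe sets were higher at 12 h than at 3 h, by 0.79 and 0.85 on the log2 scale (limma, adjusted p = 0.00432 and 0.00183).

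The 6 h call of 1424787_a_at ended without replicate 1 or 2 of DMSO (adjusted p = 0.0576 and 0.116) and without replicate 2 or 3 of 6 h (0.0837 and 0.113). That of 1434627_at ended without replicate 3 of 6 h (0.053). The 2 dim Nrf1 probe sets were not called in any comparison. One of them, 1420978_at, had 6.19, 6.23 and 6.39 with DMSO and 6.83, 7.11 and 6.47 at 12 h, but ranged from 3.96 to 6.28 at 6 h, and the 12 h interval was -0.46 to 1.52. The other, 1445914_at, was at or above 5.77 on 9 of 12 arrays, and its 12 h change was -0.27 (95% interval -1.58 to 1.03). With the mean over all 4 Nrf1 probe sets in place of the brightest one, none of its calls held: the adjusted p was 0.793 at 6 h, 0.0944 at 12 h and 0.363 for 12 h against 3 h.

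Gabpa encodes the DNA-binding subunit of GABP, also called NRF2, which acts as a complex with a β subunit. The 2 probe sets, both built on the same sequence record, gave different results. The brighter one, 1450664_at, had signals of 11.31, 11.79 and 11.38 with DMSO, 11.38, 11.73 and 11.52 at 3 h, 11.46, 11.59 and 11.79 at 6 h, and 11.43, 11.56 and 11.83 at 12 h. Its groups overlapped, and the 12 h change was 0.11, with a 95% interval of -0.16 to 0.38 (limma, adjusted p = 0.592). The dimmer one, 1450665_at, had 8.73, 8.48 and 8.65 with DMSO, 8.51, 8.80 and 8.29 at 3 h, 8.77, 9.27 and 8.59 at 6 h, and 9.16, 9.27 and 9.21 at 12 h. The 12 h arrays were close together and all above DMSO, a rise of 0.59 ± 0.16 or 1.51-fold (limma, adjusted p = 0.0116). It was also higher at 12 h than at 3 h, by 0.68 on the log2 scale (limma, adjusted p = 0.00818).

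Gabpb1, which encodes a β subunit of GABP, had the largest change at 12 h among the called genes of the 24 partner genes tested. Its brightest probe set, 1419761_a_at, had signals of 6.61, 6.37 and 6.70 with DMSO, 7.37, 7.13 and 7.27 at 3 h, 7.58, 8.03 and 7.56 at 6 h, and 8.30, 7.84 and 8.00 at 12 h. Every berberine array lay above every DMSO array, and the rise was 2.24-fold at 6 h and 2.81-fold at 12 h (limma, adjusted p = 0.00112 and 3.07e-05). Its other probe set, 1436232_a_at, had a 12 h change of 0.46 (adjusted p = 0.287).

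Esrra encodes the oestrogen-related receptor α, through which PGC-1 proteins reach many genes of oxidative metabolism. Its brighter probe set, 1460652_at, had signals of 9.68, 9.76 and 9.48 with DMSO, 9.58, 9.74 and 9.49 at 3 h, 9.68, 9.46 and 9.92 at 6 h, and 9.94, 9.92 and 10.15 at 12 h. The groups overlapped up to 6 h, and the 12 h arrays lay above all DMSO arrays. The 12 h rise was 0.36 ± 0.12, or 1.28-fold (limma, adjusted p = 0.0356), and the level at 12 h was higher than at 3 h by 0.40 (adjusted p = 0.0322). The call against DMSO ended without replicate 1 or 3 of DMSO (adjusted p = 0.0677 and 0.145), and without replicate 1, 2 or 3 of 12 h (0.0539, 0.0504 and 0.142). The call against 3 h ended without any 1 array of 12 h (0.0524, 0.0511 and 0.128) and without replicate 1 or 3 of 3 h (0.0909 and 0.123). The call against 3 h was also lost when both Esrra probe sets were averaged (0.18) and in a fit with no trend on intensity (0.0975). The call against DMSO ended in the fit with no trend as well (0.094), and with no filter on dim probe sets (0.0512). The dim probe set 1442864_at had 6.73, 7.10 and 6.89 with DMSO and 6.30, 6.85 and 5.86 at 12 h, a change of -0.57 (95% interval -1.38 to 0.24, adjusted p = 0.331). At 3 h it had 6.33, 4.93 and 6.62, all below the DMSO arrays. That change was -0.95 (95% interval -1.76 to -0.13) and was not called (limma, adjusted p = 0.324). With the mean of both probe sets, the direction at 12 h turned, to -0.10 (adjusted p = 0.738).

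**Figure D3:**
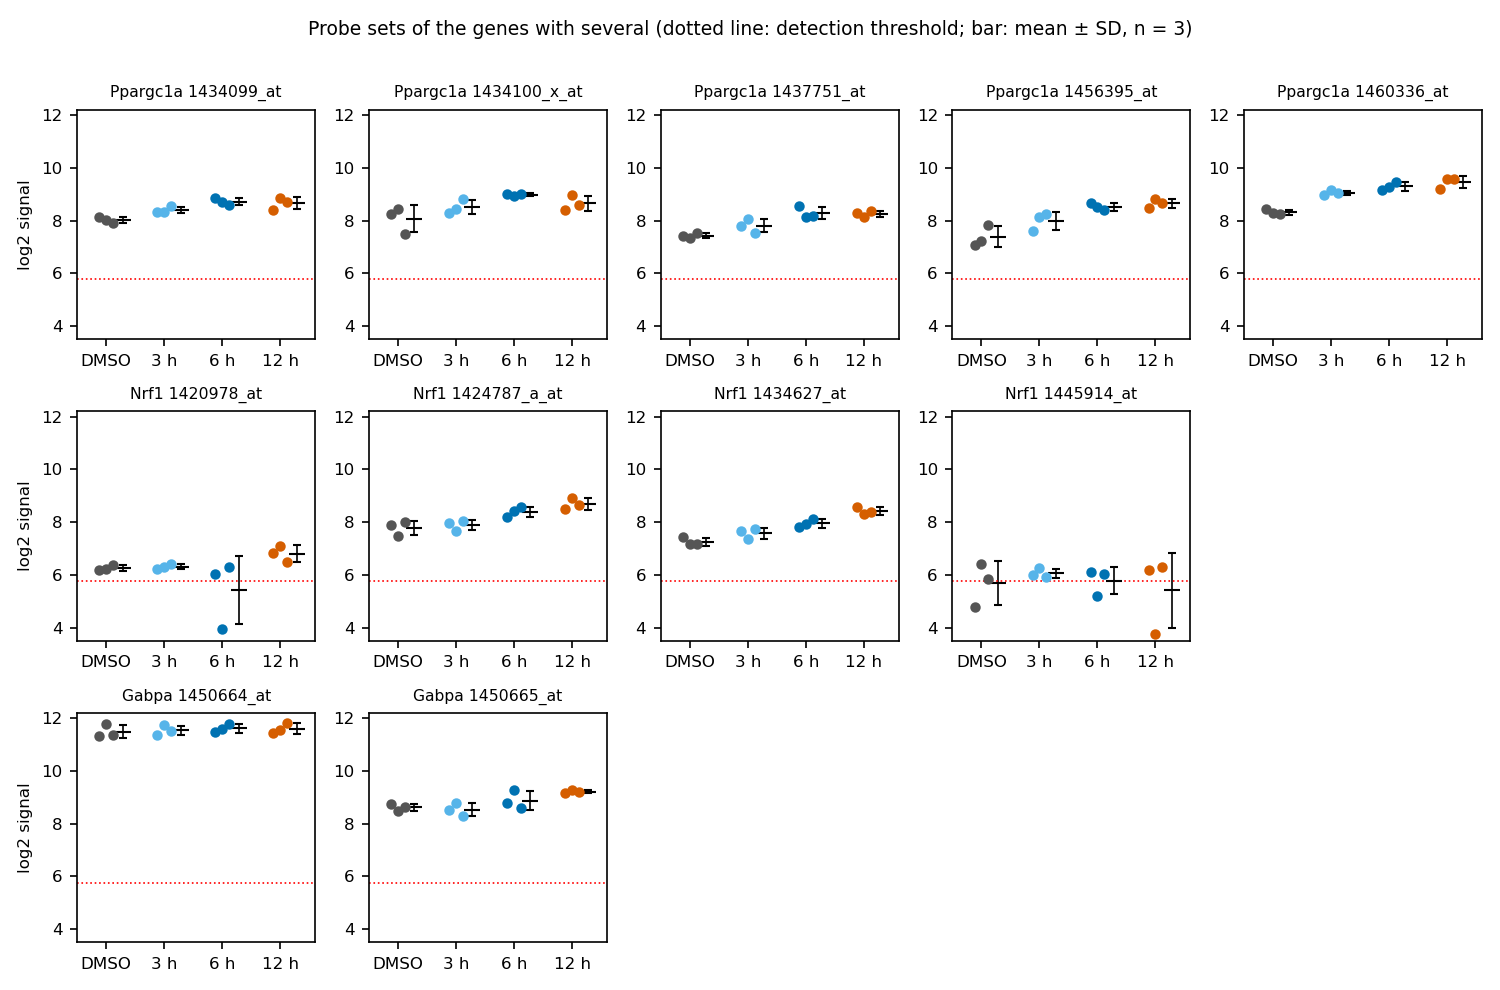
The log2 signal of every probe set of Ppargc1a, Nrf1 and Gabpa is plotted for the 12 arrays, by DMSO or hours of berberine; points are arrays, bars are the mean ± SD of 3, and the dotted line is 5.77. All Ppargc1a panels have higher means with berberine, while the dim Nrf1 probe set 1420978_at lies above the line on 11 of 12 arrays and 1445914_at lies on both sides of it.

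Tfam encodes the protein that packages mitochondrial DNA and bends its promoters for transcription. Its brighter probe set, 1448224_at, had signals of 10.76, 10.67 and 10.45 with DMSO, 10.64, 10.62 and 10.52 at 3 h, 10.57, 10.81 and 10.55 at 6 h, and 10.53, 10.54 and 10.62 at 12 h. The groups overlapped at each time. The log2 changes were -0.03, 0.02 and -0.06 at 3, 6 and 12 h, and the 12 h interval of -0.25 to 0.13 included 0 (limma, adjusted p = 0.689). The other probe set, 1456215_at, had changes of -0.15, -0.30 and -0.14, none of them called.

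Tfb2m encodes the factor that opens mitochondrial promoters together with the mitochondrial RNA polymerase. Probe set 1423441_at had signals of 10.35, 10.20 and 10.76 with DMSO, 10.37, 10.44 and 10.33 at 3 h, 10.08, 10.24 and 10.20 at 6 h, and 9.94, 10.32 and 10.13 at 12 h. Each berberine group overlapped with DMSO, and the third DMSO array was the highest of the 12. All 3 h arrays lay above all arrays of 6 h and 12 h. The changes were -0.06, -0.26 and -0.31 at 3, 6 and 12 h, the last with an interval of -0.56 to -0.05 and not called (limma, adjusted p = 0.0785). Without replicate 2 of DMSO the 12 h adjusted p was 0.0205, and without replicate 2 of 12 h it was 0.0414.

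Tfb1m encodes a methyltransferase that modifies the small ribosomal RNA of mitochondria. Its brighter probe set, 1449749_s_at, had signals of 9.80, 9.98 and 9.38 with DMSO, 9.47, 9.56 and 9.56 at 3 h, 9.60, 9.48 and 9.83 at 6 h, and 9.70, 9.64 and 9.41 at 12 h, and the groups overlapped. The 12 h change was -0.14, with a 95% interval of -0.42 to 0.14 (limma, adjusted p = 0.526). The other probe set, 1435924_at, ranged from 6.72 to 8.16 at 12 h, against 7.28 to 7.71 with DMSO, and was not called.

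Between the berberine times, 0 of the 20 probe sets passed the limma test for 6 h against 3 h, where 1.43% of all kept probe sets did, and 8 had an unadjusted p under 0.05. For 12 h against 6 h, 0 were called, against 3.78% of all, and 4 had an unadjusted p under 0.05. The shares of all kept probe sets refer to the adjusted p, and those at the unadjusted cut were not counted. For 12 h against 3 h, 6 rose and 1 fell, against 13.7% of all called. The 6 that rose were 2 of Ppargc1a, 2 of Nrf1 and 1 each of Gabpa and Esrra, and the 1 that fell was that of Ppargc1b.

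The genes whose log2 signals followed those of a member most closely over the 12 arrays were found by Pearson's r over 11537 other genes, each by its brightest probe set. Arrays of the same group share their treatment, so r describes mainly the 4 group means and carries no test. For Ppargc1a these were Gadd45a (r = 0.97), Hif1a (0.96) and Slc3a2 (0.956), with 12 h changes of 1.99, 0.54 and 1.05. For Nrf1 they were Lgals3 (0.978), Esf1 (0.977) and Ifit3 (0.974), with 12 h changes of 0.27, 0.51 and 1.86. Pprc1 was followed by Gemin2 (0.966), Ctsz (0.942) and Nsmce1 (0.938). Ppargc1b was followed less closely, by Fzd5 (0.889), Faim2 (0.874) and Rab38 (0.872). Among the members, r was 0.79 between Ppargc1a and Nrf1, 0.81 between Pprc1 and Nrf1, and -0.06 between Ppargc1a and Ppargc1b.

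The 7 lists of genes that act with, on or after these 9 held 143 tested genes, of which limma called 0 at 3 h (24 had an unadjusted p under 0.05), 11 up and 9 down at 6 h, and 16 up and 31 down at 12 h. These are 14% and 32.9% of the 143, beside 12.4% and 26.5% of all genes at 6 and 12 h. How many of all genes had an unadjusted p under 0.05 at 3 h was not counted. In an alternative fit on 1 representative probe set per gene, adjusted over those only, 1 partner factor and 1 RNA-processing gene were called lower at 3 h. With the adjustment over all kept probe sets, used everywhere else here, neither was called. The partner factor with the lowest limma p at 3 h was Hnf4a, with a mean of 2.86 at 3 h, against 6.21 with DMSO. Its 3 h mean lay under 5.77, so its change rests on a level below the detection threshold. Among 24 partner factors of PGC-1 and NRF, 6 rose and 4 fell at 12 h, with a median change of 0.04. Besides Gabpb1, these included Nfe2l2, the antioxidant response factor, which was higher by 0.59 on the log2 scale (limma, adjusted p = 1.1e-05), and Mef2a, a factor that PGC-1α binds in muscle, which was 1.44-fold higher (2.04e-05) and rose at all 4 of its probe sets. The other probe set of Nfe2l2, 1457117_at, had a change of 0.25 (0.554). Myc, the growth factor-induced transcription factor, was 1.49-fold lower (0.000239). The share called in this list, 41.7%, stood beside the 26.5% of all genes given above.

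Among 27 genes that modify, repress or turn over PGC-1 proteins, 4 rose and 5 fell at 12 h, a share of 33.3%, which became 2 and 3 without replicate 1 of DMSO, without replicate 1 of 12 h or without the intensity trend. Mybbp1a, a repressor of PGC-1α, was 1.32-fold higher (limma, adjusted p = 0.00167). Lpin1, which encodes a phosphatidate phosphatase that also acts as a coactivator, was 1.29-fold lower (0.00205). Nrip1, a corepressor of adipocyte oxidative genes, was 1.26-fold lower by its brightest probe set (0.00351), although none of its other probe sets was called at 12 h. At its other probe set, 1423430_at, the change of Mybbp1a was 0.18 (0.382). Kat2a, the acetyltransferase that acts on PGC-1α, was 1.30-fold lower (0.0389), a call that ended without any 1 of the DMSO arrays (0.151, 0.0588 and 0.0555) or replicate 1 or 2 of 12 h (0.095 and 0.151). Neither of the other Kat2a probe sets was called, and they had changes of 0.35 (1422971_at, 0.475) and -0.31 (1422972_s_at, 0.341).

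Among 21 target genes of PGC-1 and ERR, 1 rose and 5 fell at 12 h, a share of 28.6%, with a median of -0.17. Cox7a1, a respiratory chain subunit gene of muscle and fat, had signals of 9.81, 9.76 and 9.71 at 12 h, against 10.79, 10.17 and 10.30 with DMSO, and was 1.58-fold lower (limma, adjusted p = 0.000887). Alas1, the first enzyme of haem synthesis, was 1.38-fold lower (0.00016), and Mfn2, which fuses outer mitochondrial membranes, 1.30-fold lower (0.000672). The other probe set of Alas1, 1455282_x_at, had a change of -0.14 (0.756). The gene that rose, Sod2 (mitochondrial superoxide dismutase), was 1.25-fold higher by its brightest probe set (0.00083). Its probe set 1417193_at rose too, by 0.27 on the log2 scale (0.00176), but 1454976_at fell by 0.54 (3.07e-05). Its probe set 1417194_at was not called (0.351). Of the brown fat targets, Ucp1 was under 5.77 on all 12 arrays, Cidea reached it on 2 and Dio2 on 6. Elovl3, a fatty acid elongase gene of brown fat from the marker list, reached it on 11, averaged 7.04 at 12 h, against 6.25 with DMSO, and was called only for 12 h against 3 h (2.17-fold higher, adjusted p = 0.029). Prdm16 reached 5.77 on 6 arrays and Zic1 on none.

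Among 18 genes of mitochondrial DNA transcription and replication, 2 rose and 4 fell at 12 h, a share of 33.3% with a median of -0.06. Polrmt, the mitochondrial RNA polymerase, was 1.37-fold lower (limma, adjusted p = 0.00161), while its other probe set had a change of -0.25 (0.281). Mterf3, a repressor of mitochondrial transcription, was 1.30-fold higher (0.000485), and Rrm2b, a ribonucleotide reductase subunit used outside S phase, 1.28-fold higher (0.00683), with a change of 0.38 at its other probe set (0.125). Mterf2, of the same family as Mterf3, was 1.28-fold lower (0.0105), a call that ended without replicate 1 of DMSO (0.0632).

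Of 20 genes of mitochondrial RNA processing and rRNA modification, 1 rose and 7 fell at 12 h, a share of 40%, and 4 fell at 6 h, a share of 20%, where 26.5% and 12.4% of all genes were called. Prorp, the nuclease subunit that cuts the 5′ ends of mitochondrial tRNAs, was 1.89-fold lower at 6 h and 1.60-fold lower at 12 h (limma, adjusted p = 0.000507 and 0.0019). Mrm2, an rRNA methyltransferase, was 1.56-fold lower at 12 h (0.0104), a call that ended without replicate 3 of 12 h (0.0551). Fastkd3 and Fastkd5, RNA-binding proteins of mitochondria, were 1.44-fold and 1.39-fold lower at 12 h (0.00369 and 0.000972). The count of genes called in this list at 12 h was 5 without replicate 3 of 12 h, against 8 with all arrays.

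Of 14 fusion and fission genes, 1 rose and 4 fell at 12 h, a share of 35.7% beside 26.5% of all genes, and 1 rose and 2 fell without replicate 3 of DMSO or without replicate 1 or 2 of 12 h. Oma1, the protease that cleaves OPA1 under stress, was 1.41-fold lower (limma, adjusted p = 0.00185), and Yme1l1, the other OPA1 protease, 1.29-fold higher by its brightest probe set (0.00115), while its 2 other probe sets were not called. Of 20 protein import genes, 1 rose and 3 fell, a share of 20%, below that of all genes. Timm22, the channel of the carrier translocase, was 1.41-fold lower (0.000401), and its second probe set fell too (0.0314). Timm10, a chaperone of the intermembrane space, was 1.27-fold higher (0.00386). At 6 h Tomm20, an outer membrane receptor, was 1.17-fold higher by its brightest probe set (0.03), while 1435187_at of the same gene fell by 0.45 on the log2 scale (0.00351), and quantile normalization turned the brightest one to -0.02. The rise of the brightest one ended without replicate 1 or 2 of DMSO (0.0991 and 0.0628) or replicate 2 or 3 of 6 h (0.143 and 0.106).

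**Figure D4:**
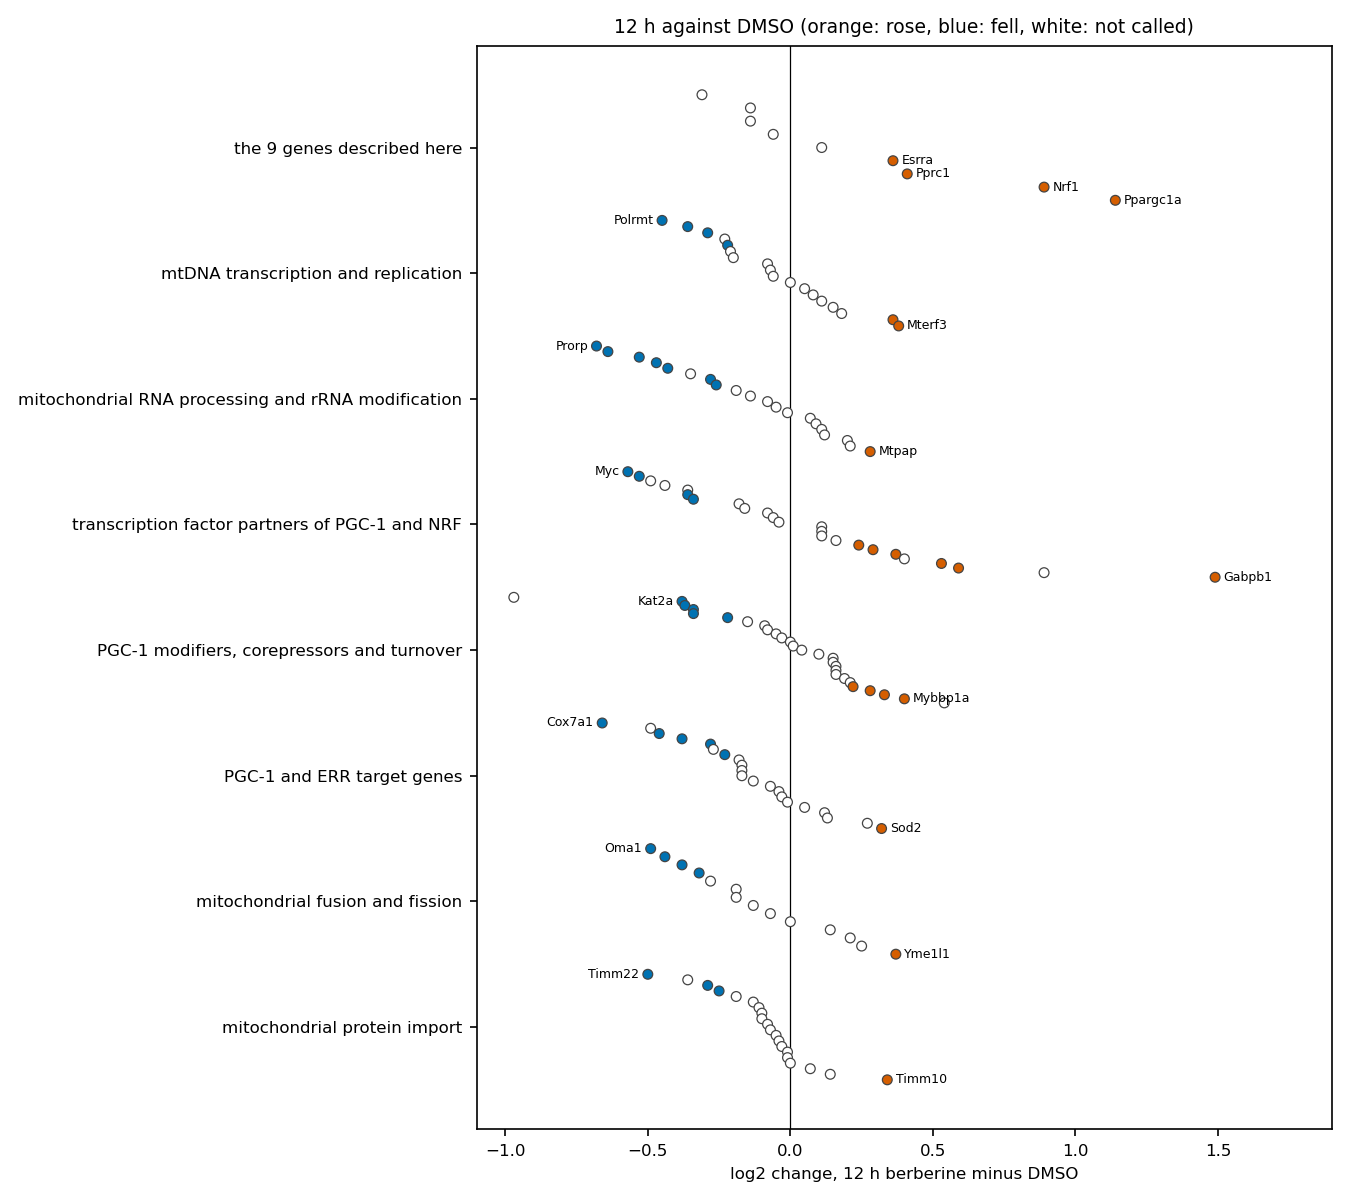
The log2 change at 12 h against DMSO is plotted for the brightest probe set of each gene, by list; orange points rose, blue points fell, and white points had an adjusted p of 0.05 or more. Names mark the called genes of the top row and the called genes with the highest and lowest change of each other row. Of the 9 genes in the top row 4 rose and 0 fell, while each of the other rows holds called genes on both sides of 0, with Gabpb1 at 1.49 farthest to the right.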

How the data were processed

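GEO's labels put the 12 arrays into 4 groups of 3. The deposited table gives a log2 signal per array for 45101 probe sets, of which 64 are controls. Per the submitters' processing notes the signals come from MAS5, whose version is not given in the sources used here. MAS5 scales each array by 1 factor, and in the deposited log2 values the trimmed mean signal was 500.004 (linear) for all 12, so a bias that depends on brightness is not removed. Scanner files were not analysed here, and no batch is given in the labels.

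The detection threshold was the median of all log2 values, 5.77 (a linear signal of 54.6). Symbols came from the platform annotation (34945 probe sets with 1 symbol, 932 with several, 9160 with none), updated through Entrez identifiers (34741 matched, 0 changed). Where a gene had several kept probe sets, the brightest on average stood for it, with those ending in _x_at used last.

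A single linear model with 1 mean for each group was fitted with limma 3.58.1 (R 4.3.3; lmFit, then eBayes with trend, leaving 8 residual degrees of freedom). Two-sided p-values were adjusted over all 25053 kept probe sets by the Benjamini-Hochberg method. Intervals are 95%. The script was tested on simulated data. Figures used Python 3.11.15 and matplotlib 3.10.9.

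The members, the 7 lists and the rule for named genes were chosen with earlier results of these data known. The rule took all probe sets of the 9 genes, up to 4 called genes per list and time with the largest change, and the 3 genes most like each member that passed the F test. Some genes it allows are left out for space. Alternatives were quantile normalization, values raised to the threshold, no filter or a filter at 6 of 12 arrays, no intensity trend, a representative or mean value per gene, only the 2 groups compared, array weights, a replicate block and leaving out each array.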

Additional observations from a re-analysis of the deposited data

Results flagged for a closer look

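For 7 of the 20 probe sets the change against DMSO differed between 12 h and 3 h of berberine, by the limma contrast of 12 h minus 3 h, which does not use the DMSO arrays for its difference. Ppargc1a differed by 0.41 (1460336_at) and 0.66 (1456395_at) on the log2 scale, Nrf1 by 0.79 (1424787_a_at) and 0.85 (1434627_at), Gabpa by 0.68 (1450665_at) and Esrra by 0.40 (1460652_at), all higher at 12 h. Ppargc1b differed in the other direction, by -0.38 (1449945_at). Groups of 3 arrays were not examined for outlying samples.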

How the results depend on the processing

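The counts of called genes and probe sets among the 9 genes stayed within 1.5 times the reported ones in all alternatives that keep every array, with the following exceptions. Without the intensity trend, 0 genes and 0 probe sets were called at 3 h, 1 gene and 5 probe sets at 6 h, and 1 gene and 3 probe sets for 12 h against 3 h. With values raised to the threshold, 1 probe set was called for 12 h against 6 h. Over all kept probe sets, dropping the trend gave 50 calls in place of 250 at 3 h and 1434 in place of 2627 at 6 h; the cause was not tested. Leaving out 1 array gave 107 (without replicate 1 of DMSO) to 371 (without replicate 3 of DMSO) at 3 h and 1544 (without replicate 1 of DMSO) to 2646 at 6 h.

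Leaving out 1 array gave 1 gene at 3 h in each case, 1 to 2 genes at 6 h, 3 to 5 at 12 h, 1 to 4 for 12 h against 3 h, 0 for the other pairs of times and 2 to 4 by the F test, and 1 to 2, 5 to 7, 8 to 11, 3 to 7 and 0 probe sets. The gene count at 6 h was 1 without replicate 1 or 2 of DMSO and without replicate 2 or 3 of 6 h, and the probe set count 5 without replicate 3 of 6 h. For 12 h against 3 h, 1 gene remained without replicate 2 of 12 h or replicate 3 of 3 h, and 2 without replicate 1 or 3 of 12 h or replicate 1 of 3 h. The probe set count of that comparison was 3 without replicate 2 of 12 h and 4 without replicate 1 or 3 of 3 h. The F test called 2 genes without replicate 1 or 2 of DMSO or replicate 1 of 12 h, and 2 probe sets were called at 3 h without replicate 3 of DMSO.

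Of the single results, 3 reversed. Tomm20 at 6 h was -0.02 with quantile normalization (adjusted p = 0.897). With the mean of a gene's probe sets, Esrra at 12 h was -0.10 (adjusted p = 0.738) and Sod2 at 12 h -0.07 (adjusted p = 0.491). With that mean, the 12 h calls of Alas1 (adjusted p = 0.112), Nrip1 (0.415) and Yme1l1 (0.106) ended too, and Gabpa at 12 h gained one (0.0236). The mean brings in dimmer probe sets.

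Replicate numbers in the labels did not pair the arrays: the correlation of deviations was -0.09 to 0.051 between arrays of the same number and -0.075 to 0.075 between others, and 3 of 12 arrays correlated best with their own number. With the replicate block, 1, 3 and 3 genes were called at 3, 6 and 12 h, and 4 for 12 h against 3 h and by the F test. Esrra at 12 h then had an adjusted p of 0.05.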
